A study of Mus musculus with 462 samples.

Results

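linc1399, also called lincIrx5 or Crnde, is a long noncoding RNA whose locus lies next to the Iroquois homeobox gene Irx5. The clones described here are the 7 mouse embryonic stem cell clones labelled as linc1399 promoter deletions, chosen by the start of their titles, the date label 150126 and the S1 mark. They are 7 of the 439 poly(A)+ RNA libraries analysed in a series of 462 samples, and each library is 1 clone. They were set against the 15 unmodified Control clones of the same date label and S1 mark. The 4 Dicer1 and 6 Meg3 promoter deletion clones of the same date and mark, both modified on chromosome 12, served as a second reference.

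All these clones descend from an F1 hybrid of the 129 and Castaneus mouse strains, whose differing sequences allow reads to be assigned to a parental chromosome. They were grown without feeder cells on gelatin and laminin in serum-free 2i/LIF, which holds them in the naive pluripotent state. The source label gives a female line and the growth protocol speaks of male cells. Each RNA library was enriched with probes for a chosen set of transcripts (hybrid selection), on a pool of barcoded libraries. The design text describes heterozygous modifications, with the unmodified chromosome of the same cell as the comparison. The labels do not name the modified chromosome of a clone or the bases removed, and the columns are therefore called column 5 and column 6. The Control titles carry 1 of 5 P marks, 3 clones each, and the titles of the deletion clones carry none.

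Promoters of long noncoding RNAs can act on neighbouring genes in several ways: through the RNA, through the act of transcription, or as DNA elements bound by transcription factors. In a heterozygous clone, an effect that stays on the modified chromosome appears as a changed allele ratio of a neighbour. An effect that travels through the cell changes both alleles. Crnde and Irx5 start close together and are transcribed in opposite directions. Irx3, Irx5 and Irx6 form an Iroquois cluster, whose members encode homeodomain transcription factors that pattern the nervous system, heart and limbs. CRNDE is known in human as a transcript raised in colorectal tumours.

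The row of linc1399 spans chr8:94849932-94880032 in the mm9 build that the files use, and a second row with the same counts under the name 4933436C20Rik, a RefSeq synonym of Crnde, was dropped. The start of Crnde is shown because the label speaks of a deletion of the linc1399 promoter, without naming the bases. RefSeq's window for Crnde in build GRCm38.p6 is chr8:92356071-92356370 on the minus strand, from 250 bases before the start to 50 after it. The capitals mark CCGCCC on either strand (bases 55, 113 and 282), CCAAT read on the other strand (base 143) and TGACGT (base 178):

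Crnde: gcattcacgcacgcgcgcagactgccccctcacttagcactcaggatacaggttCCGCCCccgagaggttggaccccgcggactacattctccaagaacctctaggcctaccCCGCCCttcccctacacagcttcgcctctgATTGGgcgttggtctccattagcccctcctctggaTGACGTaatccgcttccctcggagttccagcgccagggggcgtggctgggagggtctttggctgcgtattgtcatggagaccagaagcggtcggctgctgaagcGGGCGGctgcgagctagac

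The window has 62.7% G and C and 22 CpG dinucleotides, against a median of 7 over 32851 mouse promoter windows, of which 23.1% hold as many. CCGCCC, the core letters of a GC box, occurs on either strand in 35.7% of all windows. CCAAT occurs in 37.4% and TGACGT, part of the cyclic AMP response element, in 7.51%. Neither TATAAA (13.6% of windows) nor CACGTG (7.15%) is in it. The overlap of this window with the deleted interval is not known from the sources used here.

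Counts assigned to a parental chromosome came to between 383633 and 1508656 per deletion clone and between 304907 and 1744208 per Control clone. No pair among the 231 pairs of these 22 libraries held identical counts, and none differed by as little as sampling noise (smallest chi-square per degree of freedom 4.87). Nothing says whether clones came from separate cultures or transfections, so p-values measure the spread between these clones. Of the embryonic stem cell markers used to check the label, the probes cover Nanog and Dppa3. Nanog, a core pluripotency factor, stood at 27834 ± 1017 CPM (counts per 1000000 allele-assigned counts of a library, ± SD, n = 7) in deletion clones and 30201 ± 2703 (n = 15) in Control clones. The fibroblast list has no captured member.

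linc1399 itself had 0 counts in 3 of the 7 deletion clones and counts from 1 parental allele alone in 3 others. By clone, column 5 and column 6 held 90 and 0 counts in clone 1, 41 and 4 in clone 4, 11 and 0 in clone 5, and 0 and 34 in clone 7. Clones 2, 3 and 6 held 0 counts in both columns, which allows up to 3.15, 5.72 and 2.50 CPM, respectively. The design text speaks of heterozygous modifications, and whether both chromosomes were modified in these clones is not in the labels. Clones 1, 4 and 5 thus carried linc1399 mainly or only from column 5, and clone 7 from column 6 alone. Reads were probably counted per mate, since 84.8% of the totals from 1 to 10 were even, so intervals and floors cover counting error only and are too narrow.

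The share of linc1399 counts in column 5 was 100% in clone 1 (exact Clopper-Pearson 95% interval 96.0% to 100%). It was 91.1% in clone 4 (78.8% to 97.5%), 100% in clone 5 (71.5% to 100%) and 0% in clone 7 (upper bound 10.3%). In Control clones the log2 ratio of column 5 over column 6, with a pseudocount of 0.5, ran from -3.61 to 0.45 with a median of -0.63. It was negative in 14 Control clones and positive in 1, so most Control clones held more linc1399 counts in column 6. The ratio was positive in 1 of 4 Dicer1 and 4 of 6 Meg3 clones, whose column 5 and column 6 averaged 33.5 and 40.8 CPM (Dicer1) and 39.96 and 33.3 CPM (Meg3).

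**Figure D1:**
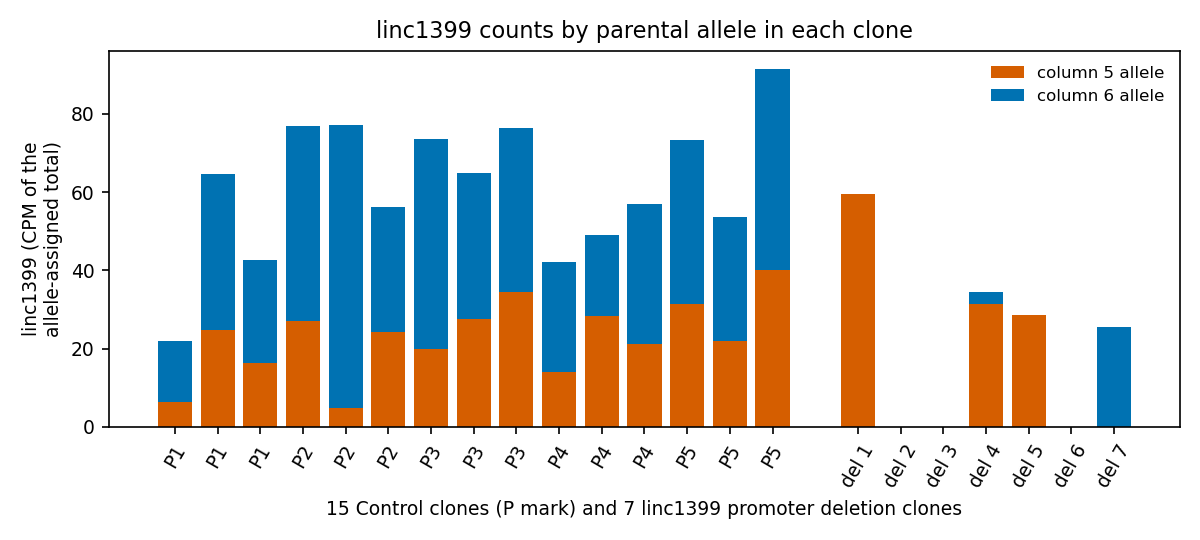
Bars give linc1399 CPM in each clone, split into the counts of the column 5 allele (orange) and the column 6 allele (blue), for 15 Control clones named by P mark and 7 deletion clones. Deletion clones 2, 3 and 6 have no bar, and clones 1, 5 and 7 have 1 colour.

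Over both alleles together, linc1399 stood at 59.7, 0, 0, 34.4, 28.7, 0 and 25.7 CPM in deletion clones 1 to 7. The Control clones ran from 21.99 to 91.6 CPM with a median of 64.7. The groups overlap: 4 deletion clones lie inside the Control range and the 3 at 0 lie below it. The mean was 21.2 ± 22.7 CPM (SD, n = 7) in deletion clones and 61.4 ± 17.9 (n = 15) in Control clones. An exact two-sided permutation test over all 170544 splits of the clones gave p = 0.000334 for this difference. It took the 15 Control clones as exchangeable and did not use their P marks. Each library is a bulk sample, in which fewer expressing cells and less RNA per cell cannot be told apart.

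In the fit across all captured rows the fold change missed the threshold of 0.05. edgeR's quasi-likelihood test gave a log2 fold change of -1.48 ± 0.47 (SE) with a Benjamini-Hochberg adjusted p of 0.0878, and DESeq2 gave -1.56 with an adjusted p of 0.0837. Without clone 1, the deletion clone with the most linc1399, the log2 fold change was -2.05 and the adjusted p 0.0191 in edgeR. The 3 Control clones with the P1 mark had less linc1399 than the other 12, at 43.1 ± 21.3 against 65.99 ± 14.5 CPM, and the log2 fold change against the P1 clones alone was -1.03 ± 0.95. With Control counts summed per P mark, edgeR gave -1.44 ± 0.62 (adjusted p 0.315).

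Taken by allele, column 6 was lower in the deletion clones and column 5 did not pass the test. Column 6 held 4.10 ± 9.58 CPM in deletion clones (n = 7) and 38.6 ± 14.4 in Control clones (n = 15), with an exact two-sided permutation p of 1.76e-05 and 5.28e-05 after adjustment over the 3 quantities tested (column 5, column 6 and both). Clone 7, at 25.7 CPM, was the only deletion clone above 3.06 CPM in that column. Column 5 averaged 17.1 ± 23.5 CPM in deletion clones and 22.8 ± 9.68 in Control clones (exact permutation p = 0.422, adjusted 0.422), and clones 2, 3, 6 and 7 were at 0. Whether the columns differ in their change was not tested. These 3 tests did not use the P marks and were chosen after the values were seen.

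Clone 1 was the highest deletion clone in column 5. Its 59.7 CPM from that allele lay above the Control range of 4.83 to 40.1 CPM, while the 31.4 of clone 4 and the 28.7 of clone 5 lay within it. Of the clones modified on chromosome 12, 4 also lay above 40.1 CPM in column 5: Dicer1 clone 4 at 49.4 CPM, and Meg3 clones 1, 3 and 5 at 61.3, 48.6 and 47.3 CPM, the first with 12 linc1399 counts. The 25.7 CPM of clone 7 from column 6 lay within the Control range of 15.7 to 72.4 CPM for that allele. The 3.06 CPM of clone 4 from column 6 lay below that range.

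Allelic imbalance, measured as the mean absolute deviation of a clone's log2 ratio from the median over both groups, was 5.75 ± 2.15 (SD, n = 3) in deletion clones and 0.53 ± 0.89 (n = 12) in Control clones with at least 20 linc1399 counts. The exact two-sided permutation p of 0.0022 is the smallest that 455 splits can give, and over the 491 rows tested it became 0.360. With a minimum of 10 counts, an alternative added after seeing the data, clone 5 and all Control clones entered, the difference was 5.07 and the adjusted p 0.0686.

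**Figure D2:**
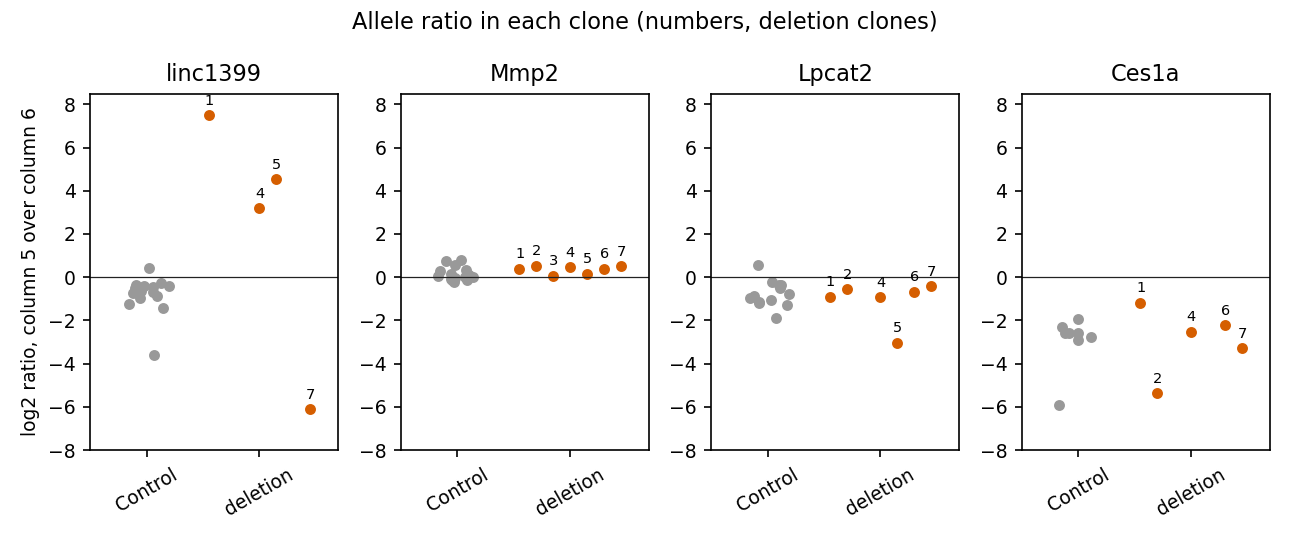
Points are the log2 ratio of column 5 over column 6 counts in each clone for linc1399 and the 3 neighbours with enough counts, in Control clones (grey) and in deletion clones (orange, numbered). linc1399 is shown for every clone with a count and the neighbours for clones with at least 20 counts. linc1399 ratios of clones 1 and 7 lie far out on opposite sides, while their Mmp2 ratios are 0.40 and 0.52.

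Outside these 7, the loss of signal was found in no library with the same transcript list. Among the 160 other libraries with that list, 0 were without linc1399 counts, and their values ran from 21.99 to 257 CPM. Libraries with other transcript lists were not examined here. The Dicer1 deletion clones held 74.3 ± 11.4 CPM (n = 4) and the Meg3 clones 73.2 ± 9.57 (n = 6), with ranges from 65.6 to 90.4 and from 62.3 to 90.3. All of these lie above deletion clones 1 to 7. Control clones differed by date label, at 176.6 ± 40.4 CPM for 141107 (n = 63) and 73.95 ± 30.04 for 150216 (n = 12), so the main comparison stays within 150126.

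**Figure D3:**
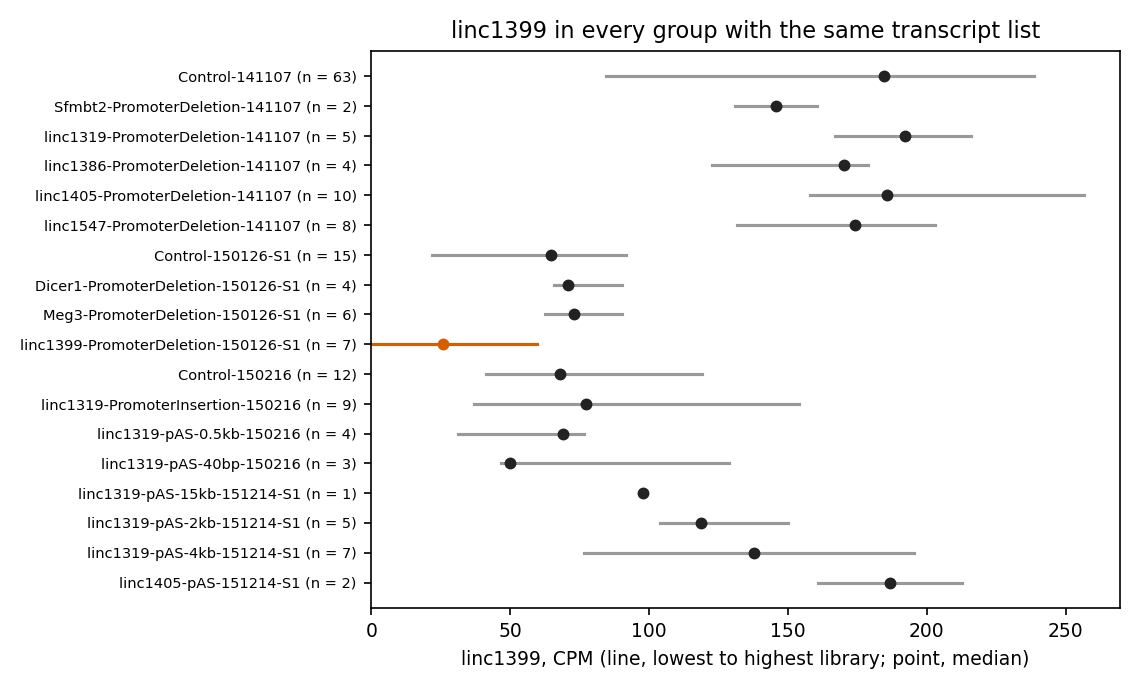
Lines run from the lowest to the highest library and points give the median linc1399 CPM in each group with the same transcript list, in order of date label. The deletion group (orange) alone reaches 0, and the medians of groups of 141107 lie above those of 150126.

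The question put to the locus is whether genes within 1 Mb change with the deletion, and on which chromosome. The window holds 14 captured rows besides linc1399, of which 3 had a mean count of at least 10. Of these 3, edgeR called 0 (adjusted p under 0.05), against 2.32% lower and 0% higher over all 517 rows tested. None of the 3 had an unadjusted p under 0.05, and DESeq2 called 0. By allele ratio 0 of the 3 were called, against 0.204% of all 491 rows tested. With 3 rows, these counts cannot show that the neighbourhood is unaffected. The allele test cannot see a change shared by both chromosomes, and it hardly responds to a same-side shift within the Control spread. Clones 2, 3 and 6, with 0 linc1399 counts in both columns, were not set apart in it.

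Irx5, the nearest gene at 1.663 kb (chr8:94881695-94885355), had 0 counts in all 22 clones. Over the group, 3 counts correspond to 0.416 CPM in the deletion clones and 0.240 CPM in the Control clones. Only reads that cover a strain difference are counted, so these levels are not limits on expression itself. In the 145 other libraries with the same list Irx5 had 4 counts, in 2 libraries. Irx3 at 524 kb was likewise at 0 in all 22. Irx6 at 318 kb held 22 counts in 5 of 7 deletion clones and 30 counts in 10 of 15 Control clones. A fall of Irx5 or Irx3 could not have been detected at this depth, and for a single deletion clone 3 counts correspond to between 1.99 and 7.82 CPM, so a rise below that level in 1 clone could not have been seen either.

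Mmp2, which encodes a gelatin-degrading matrix metalloproteinase, lies 471 kb away (chr8:95351227-95377319) and had the most counts in the window. Its levels in deletion clones 1 to 7 were 256.5, 169.9, 230.9, 182.9, 177.3, 184.7 and 257.4 CPM. Control clones ran from 133.1 to 717.2 CPM with a median of 220.7, and all 7 deletion clones lie inside that range. The means were 208.5 ± 38.5 (n = 7) and 243.9 ± 140.8 (n = 15), with a log2 fold change of -0.23 ± 0.23 and an adjusted p of 0.658 in edgeR. Against the Dicer1 and Meg3 clones edgeR gave Mmp2 a log2 fold change of -0.90 ± 0.26 (adjusted p 0.0446), so the call depends on which clones serve as reference.

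The test of absolute deviation did not call Mmp2 over the 7 deletion clones pooled. That test cannot decide on a same-side shift within the Control spread, which hardly changes its measure. The 7 clones include clones 2, 3 and 6, with 0 linc1399 counts in both columns, where a change shared by both alleles would leave the ratio as it is. The log2 ratios of deletion clones 1 to 7 were 0.40, 0.54, 0.07, 0.47, 0.17, 0.39 and 0.52, all on the side of column 5, with a Control median of 0.06. Control clones ran from -0.20 to 0.79, Dicer1 clones from 0 to 0.62 and Meg3 clones from 0.04 to 0.97. The lean to column 5 was thus not particular to the linc1399 clones. Clone 1, with linc1399 from column 5 only, and clone 7, with linc1399 from column 6 only, had Mmp2 ratios on the same side. The mean absolute deviation was 0.23 ± 0.14 in deletion clones (n = 7) and 0.25 ± 0.19 in Control clones (n = 15), with an exact permutation p of 0.861 (adjusted 0.999).

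Lpcat2, an acyltransferase of phospholipid remodelling, lies 499 kb away (chr8:95379249-95443178). Deletion clones ran from 28.6 to 97.4 CPM with a median of 65.02, and Control clones from 23.6 to 131.3 with a median of 53.3. The means of 65.1 ± 21.6 and 57.96 ± 24.6 CPM gave a log2 fold change of 0.18 ± 0.22 (adjusted p 0.737 in edgeR). Its log2 allele ratios lay between -0.93 and -0.42 in 5 deletion clones and at -3.04 in clone 5, where it rests on 2 and 20 counts. The median was -0.79 in deletion clones and -0.86 in Control clones. Clone 3 had 15 counts and was not scored, while clones 2 and 6, without linc1399 counts, were. The mean absolute deviations were 0.54 ± 0.82 (n = 6) and 0.45 ± 0.40 (n = 13), with an exact permutation p of 0.788 (adjusted 0.999).

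Ces1a, a member of the carboxylesterase 1 cluster, lies 664 kb away (chr8:95544114-95572091). Its levels ran from 19.6 to 42.9 CPM in deletion clones and from 16.3 to 40.5 in Control clones. The means were 27.9 ± 8.54 and 29.8 ± 6.49 CPM, and the log2 fold change was -0.12 ± 0.17 (adjusted p 0.777 in edgeR). Column 6 held more counts than column 5 in every deletion clone, with 12 against 28 in clone 1 and 2 against 24 in clone 7, whose linc1399 came from opposite columns. The same held in every Control, Dicer1 and Meg3 clone. Among clones with at least 20 counts the median log2 ratio was -2.51 in deletion and -2.56 in Control clones. The mean absolute deviation of its log2 ratio was 1.06 ± 1.09 (n = 5) against 0.60 ± 1.14 (n = 8), with an exact permutation p of 0.506 (adjusted 0.999). Clones 2 and 6, without linc1399 counts, are among the 5.

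**Figure D4:**
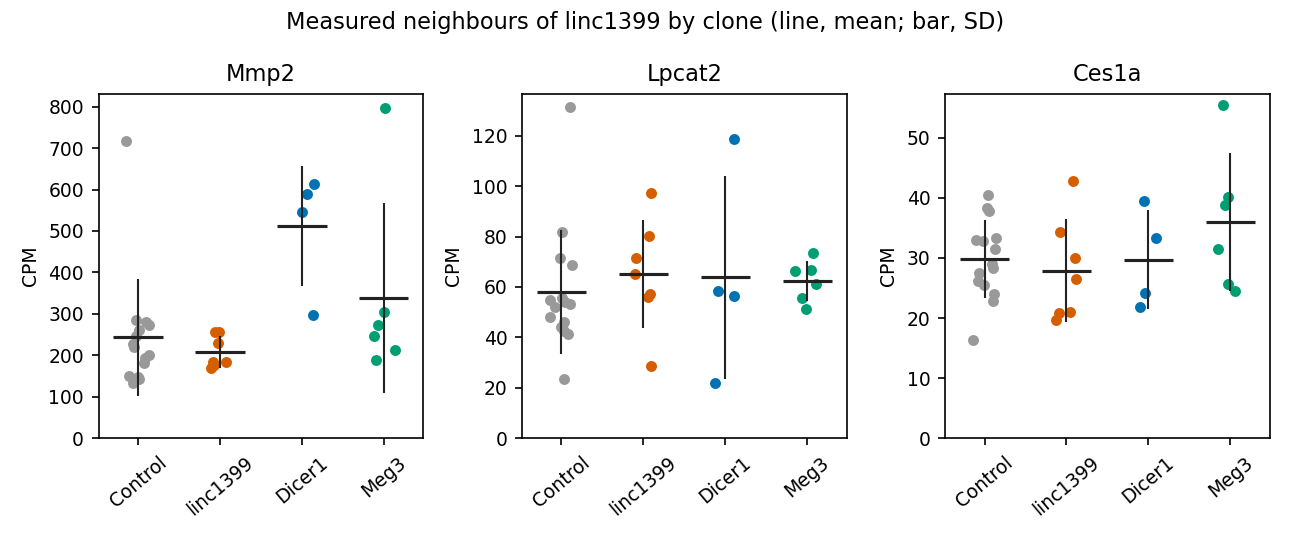
Points give the CPM of Mmp2, Lpcat2 and Ces1a in each Control clone (15) and in each linc1399 (7), Dicer1 (4) and Meg3 (6) deletion clone, with the mean (line) and SD (bar). The linc1399 clones lie within or close to the Control spread, and Mmp2 is higher in Dicer1 clones.

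The other rows of the window were near the limit of detection. Slc6a2, the noradrenaline transporter, held 36 counts in the deletion clones together and 48 in the Control clones. Capns2, a small calpain subunit, held 6 and 26. Among the remaining carboxylesterases, Ces1b held 12 and 30 counts, Ces1c 22 and 16, Ces1d 9 and 14, Ces1e 0 and 4, Ces1f 0 and 1, and Ces1g 3 and 2. No test was made for these rows, which failed the count minimum.

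Of all 517 rows tested, 12 were lower in the deletion clones and 0 were higher (2.32% and 0%), by edgeR. All 12 lay outside the window, where 513 rows were tested. Unadjusted p was under 0.05 for 55 lower and 36 higher rows, and DESeq2 called 17 lower and 8 higher. The median log2 fold change over all rows was -0.003. The 12 rows lie on 6 chromosomes, none of them chromosome 8. In none of the 517 rows did all deletion clones lie below, or all above, the Control clones.

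The rows called lower include enzymes, RNA-binding proteins and a long noncoding RNA. Gapdh, the glycolytic glyceraldehyde-3-phosphate dehydrogenase (chr6:125111870-125115601), ran from 387.4 to 567.9 CPM in deletion clones with a median of 481. Control clones ran from 471 to 1313 CPM with a median of 992. All 7 deletion clones lay below the Control median and 2 below the lowest Control clone. edgeR gave a log2 fold change of -0.92 ± 0.15 (adjusted p 0.000313).

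Hnrnpa2b1, an RNA-binding protein of splicing and RNA transport (chr6:51410434-51419893), ran from 980 to 1274 CPM in deletion clones and from 908.5 to 2237 in Control clones, with medians of 1083 and 1881. Its log2 fold change was -0.77 ± 0.12 (adjusted p 0.000161). Clk1, a kinase of splicing factors (chr1:58468832-58480932), ran from 933 to 1242 CPM against 977 to 1961, with medians of 1011 and 1519 and a log2 fold change of -0.57 ± 0.09 (adjusted p 0.000161). For both, all 7 deletion clones lay below the Control median and the ranges overlapped. 2810403A07Rik, named Khdc4 by RefSeq and a KH-domain RNA-binding protein (chr3:88489716-88516855), ran from 701 to 931 CPM against 781 to 1340, with a log2 fold change of -0.51 ± 0.07 (adjusted p 0.000147).

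Cct3, a subunit of the chaperonin that folds actin and tubulin (chr3:88101057-88125688), ran from 29.1 to 49.7 CPM in deletion clones and from 42.6 to 121.3 in Control clones, and 5 deletion clones lay below the lowest Control clone. Its log2 fold change was -0.99 ± 0.18 (adjusted p 0.000884). B130006D01Rik (chr11:95584900-95588087) had the largest change, -1.52 ± 0.31 (adjusted p 0.00349), at 5.21 to 34.95 CPM against 26.2 to 98.8. linc1449, a long noncoding RNA (chr11:96112442-96130546), ran from 49.6 to 147.2 CPM against 99.1 to 515.7, with a log2 fold change of -0.92 ± 0.23 (adjusted p 0.0247).

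A further 4 rows, named after their values were seen, changed by less. Akr1b8, an aldo-keto reductase (chr6:34304164-34318454), had a log2 fold change of -0.37 ± 0.10 (adjusted p 0.0434). Mllt6, a PHD-finger protein known as a fusion partner in leukaemia (chr11:97524726-97546772), was at -0.28 ± 0.06 (adjusted p 0.00524). Ino80, the ATPase of a chromatin remodelling complex (chr2:119198779-119303365), was at -0.26 ± 0.06 (adjusted p 0.00524). Morc3, a nuclear-body ATPase (chr16:93832366-93876318), was at -0.18 ± 0.05 (adjusted p 0.0328).

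The Control clones with the P1 mark lay beside the deletion clones at these rows. Gapdh stood at 486.5 ± 62.95 CPM in the 7 deletion clones, 503 ± 53.3 in the 3 P1 clones and 1012 ± 119 in the 12 Control clones with other P marks. Hnrnpa2b1 stood at 1091 ± 95.2, 1154 ± 224 and 1998 ± 171 CPM in the same order. For 11 of the 12 rows the deletion mean was closer to the P1 mean than to the mean of the other Control clones, and Akr1b8 was the exception, at 2199, 2920 and 2762 CPM. The P1 mean was the lower of the Control means in 11 of the 12 rows and in 319 of all 517 rows tested. The part of the P mark in these calls was not tested, since the deletion clones carry no mark.

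The calls depended on which Control clones were used. Against the 3 P1 clones alone, 0 of 520 rows were called by edgeR, with 39 at an unadjusted p under 0.05, and all 12 log2 fold changes stayed negative, from -0.57 to -0.08. Without the P1 clones all 12 were called, among 22 lower and 6 higher of 520 rows. All deletion clones then lay below all remaining Control clones in 7 of the 12 rows, which were chosen for being lower, and in 9 of all 517 rows (1.74%), while 2 rows lay above (0.387%). With Control counts summed per P mark 7 of the 12 were called, and linc1449 (adjusted p 0.0678), Mllt6 (0.0737), Akr1b8 (0.229) and Morc3 (0.133) were not. Among Control clones, the P1 clones against the rest gave 3 rows higher and 4 lower of 514, the P3 clones 0 and 5, and the P2, P4 and P5 clones 0.

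The clones modified on chromosome 12 gave a second reference. Gapdh was at 789 ± 90.2 CPM in Dicer1 clones (n = 4) and 1152 ± 108 in Meg3 clones (n = 6), and Hnrnpa2b1 at 1831 ± 53.2 and 1882 ± 217. Against these 10 clones all 12 log2 fold changes were negative and 9 were called again by edgeR, while Akr1b8 and Morc3 were not. The 12 rows were chosen for being lower in the same 7 deletion clones, so this is no independent test. Over all 517 rows, this reference gave 22 lower and 15 higher. For Gapdh the log2 fold change was -1.05 and for Hnrnpa2b1 -0.76.

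**Figure D5:**
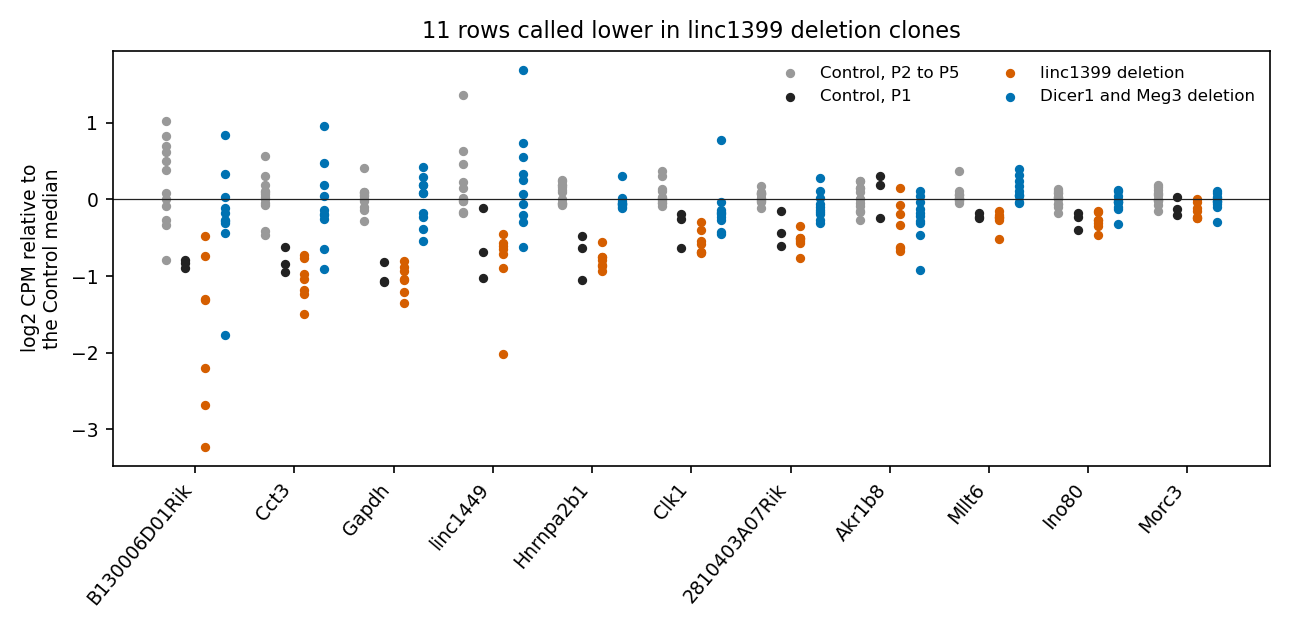
Points give log2 CPM relative to the Control median for 11 of the 12 rows called lower, in Control clones with P2 to P5 marks (grey), Control clones with the P1 mark (black), linc1399 deletion clones (orange) and Dicer1 and Meg3 deletion clones (blue). The P1 clones lie near the deletion clones in most rows, and B130006D01Rik spreads most among the deletion clones.

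Pluripotency and lineage genes gave no call, where 2.32% of all 517 rows were called lower and 0% higher. With 1 to 3 tested members, these lists cannot be told from that background. The list of naive and general pluripotency genes has 3 captured members of 28, and edgeR called 0: Nanog had a log2 fold change of -0.14 ± 0.06 (unadjusted p 0.0302, adjusted p 0.213), Dppa3, a maternal and naive-state factor, 0.08 ± 0.15, and Gdf3, a TGF-beta family ligand, -0.02 ± 0.04. Their median was -0.02, beside -0.003 over all rows. Of the mesendoderm and primitive endoderm list 3 of 18 were captured and 0 called, with Evx1 at -0.46 ± 0.21 (unadjusted p 0.0373, adjusted p 0.241), Eomes at 0.12 ± 0.14 and Gsc at -0.01 ± 0.15. Dppa3 ran from 10383 to 24434 CPM in deletion clones (median 12678) and from 6462 to 16847 in Control clones (median 13210).

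Nes, an intermediate filament of neural progenitors and the sole captured member of 15 neural genes, was at 0.21 ± 0.13 (adjusted p 0.393). Of the trophoblast list 2 of 8 were captured, Gata3 at -0.14 ± 0.23 and Eomes as above, and 0 were called. Of the Polycomb list 2 of 14 were captured, Eed at 0.13 ± 0.24 and Sfmbt2 at -0.04 ± 0.17, and 0 were called. The primed-state list of 9 has no captured member. Of 6 Iroquois genes 3 were captured and 0 had enough counts.

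Of 19 glucose metabolism genes 4 were captured and 3 tested, with 1 lower (Gapdh) and 0 higher, beside 2.32% and 0% of all rows. Slc2a3, a glucose transporter, had a log2 fold change of 0.12 ± 0.12 (adjusted p 0.639) and Pkm, pyruvate kinase, 0.20 ± 0.09 (adjusted p 0.245). Tpi1 held 52 and 65 counts in the groups and was not tested. The median of the 3 was 0.12.

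By allele ratio, 1 of 491 rows was called (0.204%), with 27 at an unadjusted p under 0.05. It was Tuba3a, an alpha-tubulin gene on chr6:125228292-125236060. Its counts may be uncertain, since tubulin genes share near-identical sequence, which was not tested. Its log2 ratios in deletion clones 1 to 7 were 0.23, -0.06, -0.13, -0.36, -0.14, -0.01 and 0.53. The Control clones ran from 0.08 to 0.46, so 5 deletion clones lay below that range and clone 7 above it. The mean absolute deviation was 0.35 ± 0.18 (n = 7) against 0.08 ± 0.06 (n = 15), with an exact permutation p of 8.80e-05 and an adjusted p of 0.0432. The call was lost against the Dicer1 and Meg3 clones, where the difference was 0.05 (adjusted p 0.998).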

How the data were processed

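Per the labels, the libraries are hybrid-selected poly(A)+ RNA. The authors deposited raw counts for each transcript and parental allele. Coordinates are in mm9 (the submitters' processing notes). For the aligner, the counter and the rule for alleles, names are not given in the sources used. Reads that cover no strain difference are not counted. Of 903 rows, 5 with the counts of an overlapping row were dropped and 898 used. Totals (both columns) were tested with edgeR 4.0.16 in R 4.3.3 (TMM, quasi-likelihood F test, mean count of at least 10, Benjamini-Hochberg over all rows tested, threshold 0.05), without a P mark term. CPM is per 1000000 allele-assigned counts. Allele ratios were tested by exact two-sided permutation of the mean absolute deviation (pseudocount 0.5, at least 20 counts per clone, at least 2 deletion and 5 Control clones), in Python 3.11.15. Both tests were run on simulated data. edgeR recovered 79.1% of rows changed by a log2 of 0.5, with 4 false calls among 316 unchanged rows. That simulation held no differences between P marks, so it cannot speak to calls that depend on them. The allele test recovered 100% of 60 rows shifted by a log2 of 2, with 2 false calls.

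The members, lists and alternatives were chosen with earlier results of these data known. Named rows are linc1399, all rows within 1 Mb, up to 8 called higher and 8 lower by size, up to 6 called by allele, and called list members; 1 called row is not reported here. Alternatives were DESeq2 1.42.0, library size alone, no count filter, other reference clones, P mark sums, other count minimums, the allelic fraction and leaving out each clone or P mark.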

Additional observations from a re-analysis of the deposited data

Results flagged for a closer look

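Among 19 sets of values of the deletion clones, 3 had 1 clone that stood far from the others, with a gap to its nearest neighbour that took up an unusually large share of the whole range. Such a gap is met by chance in about 1 of 20 sets, so about 1 is expected among 19. For linc1449 the gap of clone 3, at 49.6 CPM where the others held 107.9 to 147.2, was 0.598 of the range over 7 clones. For Mllt6 clone 3 was again the lowest, at 8690 CPM where the others held 10337 to 11154, a gap of 0.669 of the range. For the Lpcat2 log2 allele ratio clone 5, with 2 and 20 counts, gave a gap of 0.807 over 6 clones. The part of depth was not tested; clone 5 has the lowest library total (383633) and clone 3 the second lowest (524066).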

How the results depend on the processing

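The log2 fold change of linc1399 was negative under all alternatives run and passed the threshold under 2: with Control clones of any date as reference (-2.64, adjusted p 1.22e-06), which include those of 141107 at 176.6 CPM, and without deletion clone 1 (-2.05, adjusted p 0.0191). It ran from -2.05 to -1.25 when each deletion clone was left out and from -1.57 to -1.43 when each P mark was. Rows called by total were 12, and 25 with DESeq2, 255 against Control clones of any date, 37 against the Dicer1 and Meg3 clones (1 of the 3 local rows, Mmp2), 7 with Control counts summed per P mark, 28 without the P1 clones, and 0, 36 and 5 against the P1, P3 or P5 clones alone, a reference added after seeing the data. They ran from 8 to 15 without 1 deletion clone and from 8 to 28 without 1 P mark. The linc1399 allelic deviation was 5.18 with Control clones of any date (adjusted p 0.000715), 4.12 to 6.27 without 1 deletion clone and 5.11 to 5.44 without 1 P mark. Rows called by allele were 1, and 58 against Control clones of any date, 0 against the Dicer1 and Meg3 clones, 0 to 1 without 1 deletion clone and 0 to 0 without 1 P mark.

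Against Control clones of any date 4 of the 11 lower rows named changed sign, of which edgeR called only Akr1b8 (0.60 ± 0.22, adjusted p 0.0231). The others were Cct3 at 0.63 ± 1.11 (adjusted p 0.659), Gapdh at 0.87 ± 1.03 (0.502) and Ino80 at 0.086 ± 0.081 (0.389). The cause was not tested. Over 23 settings the 11 lower rows named gave 253 fits, of which 249 were negative and 188 called. The rows were chosen for being lower in the same 7 deletion clones, and the fits share most of their clones. These fits are therefore not independent tests. Akr1b8 and Morc3 were each called in 2 of 7 fits without a deletion clone, and linc1449 in 5 of 7. Tuba3a lost its call in 6 of 7 such fits and in all 5 without a P mark. A minimum of 50 allele counts gave no value for linc1399. No paired analysis was possible because the clone numbers are in accession order and pair no clones. Depth limits linc1399, with 11 to 90 counts in the 4 deletion clones that have any. Irx5 and Irx3 had no count. Low expression, limited depth, few strain differences and weak probe capture cannot be told apart there.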
